A study of Mus musculus with 6 samples.

Results

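The genes followed here encode the subunits of the GABA-B receptor, Gabbr1 and Gabbr2, and of the neuronal GIRK potassium channels, Kcnj3, Kcnj6 and Kcnj9. They were found by symbol in both of the authors' deposited tables, 5 of 23235 genes, and all 5 had a test in each table. The data are from 6 RNA sequencing libraries of primary mouse neurons of cortex and hippocampus, taken from embryos at day 15 and kept in culture for 17 days. Every culture had cytosine arabinoside (AraC), which kills dividing cells, at 1 uM on day 5, and lentivirus on day 12. The groups, 2 libraries each, were a control, cultures given shRNAs against HDAC2 (a class I histone deacetylase), and cultures given shRNAs against Sp3 (a zinc finger transcription factor that recognizes GC boxes in promoters). The sources used here do not give what the control virus carried, the shRNA sequences, the promoter that drove them, or the genotype or strain of the embryos. The series asks whether HDAC2 and Sp3 regulate genes together.

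GABA-B receptors are G protein-coupled receptors for the inhibitory transmitter GABA. They work as heterodimers: the Gabbr1 product binds the transmitter, and the Gabbr2 product brings the pair to the cell surface and activates the G protein. G protein beta-gamma dimers released at Gi/o proteins open GIRK channels (G protein-gated inwardly rectifying potassium channels), which draws the membrane towards the potassium equilibrium and gives the slow inhibitory postsynaptic potential of hippocampal and cortical neurons. GIRK channels are tetramers of the Kcnj3 (GIRK1), Kcnj6 (GIRK2) and Kcnj9 (GIRK3) products. Kcnj3 needs a partner subunit to reach the surface, Kcnj6 can form channels alone, and Kcnj9 influences trafficking of the channel.

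The authors deposited 1 value per group, in FPKM (fragments scaled to transcript length and to the fragments mapped), and none per library, so no spread between libraries can be shown and depth is unknown. Errors are therefore standard errors (SE) implied by the authors' test statistic, with a median over genes of at least 1 FPKM of 0.26 log2 units for HDAC2 and 0.14 for Sp3 knockdown. Whether libraries of the same group are separate cultures is not stated, and p-values may then reflect technical spread only. No exact test is possible with 1 value per group, so every p below is from the normal distribution unless a t distribution is named. An adjusted p covers all genes tested in that comparison, and q is the authors' own adjusted value. The median gene stood at a log2 fold change of 0.32 in HDAC2 and -0.13 in Sp3 knockdown, so values are given as deposited and also relative to that median (centred). The targeted genes were lower where named: Hdac2 went from 49.4 to 12.3 FPKM in HDAC2 knockdown, and Sp3 from 15.5 to 5.82 FPKM in Sp3 knockdown per the authors' deposited tables. Each target was also called in the other knockdown. Sp3 was higher in HDAC2 knockdown, at 26.7 FPKM (q listed as 0), also relative to the median gene (0.47, adjusted p of 3.48e-06). Hdac2 was lower in Sp3 knockdown, at 38.8 FPKM (q = 0.00598), a call lost relative to the median gene (adjusted p of 0.0997).

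The cultures expressed neuronal markers throughout, and glial markers differed between the groups. Summed over 15 pan-neuronal markers, the authors' deposited values were 2252 FPKM in control, 2262 in HDAC2 knockdown and 2747 in Sp3 knockdown. For 12 astrocyte markers the sums were 633, 1815 and 542 FPKM, and for 14 oligodendrocyte lineage markers 226, 452 and 131 FPKM in the same order. Microglial markers summed to between 4.56 and 6.55 FPKM over 10 genes, with Tyrobp and Tmem119 listed at 0 in every group, and endothelial and pericyte markers to between 3.32 and 6.30 FPKM over 10 genes. In RNA of whole cultures, fewer cells of a type and less RNA per cell cannot be told apart.

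Gabbr2 was the member with the greatest rise, about 3-fold in both knockdowns, and Kcnj3 rose by 1.75-fold in HDAC2 and 1.61-fold in Sp3 knockdown as deposited. Gabbr1, Kcnj6 and Kcnj9 were not called in either of the authors' deposited tables. In HDAC2 knockdown 2 of 5 members were thus called, where 28.2% of the 13569 genes tested were (q under 0.05 per the authors' deposited table). Both were higher, the direction of 24.6% of genes, and 0 were lower, the direction of 3.6%. In Sp3 knockdown 2 of 5 were called by the same rule, where 39.3% of 13619 genes were. Both were higher, the direction of 13.2% of genes, and 0 were lower, the direction of 26.1%. Relative to the median gene, 2 members were called in HDAC2 knockdown, against 17.8% of genes, with 1 higher and 1 lower, against 10.2% and 7.59% (normal test of the shifted statistic, Benjamini-Hochberg adjustment over all genes). On the same scale 3 members were called in Sp3 knockdown, against 37.8% of genes, all higher, against 20.2% higher and 17.6% lower. Centred on the pan-neuronal markers instead, 4 members were called in Sp3 knockdown, 2 higher (Gabbr2 and Kcnj3) and 2 lower (Kcnj6 and Kcnj9), and 2 higher and 0 lower in HDAC2 knockdown. If the authors' statistic is instead read against a t distribution with 2 degrees of freedom, 0 members and 0 of all genes are called in any comparison. The knockdowns share their control libraries, so they are not independent of each other.

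**Figure D1:**
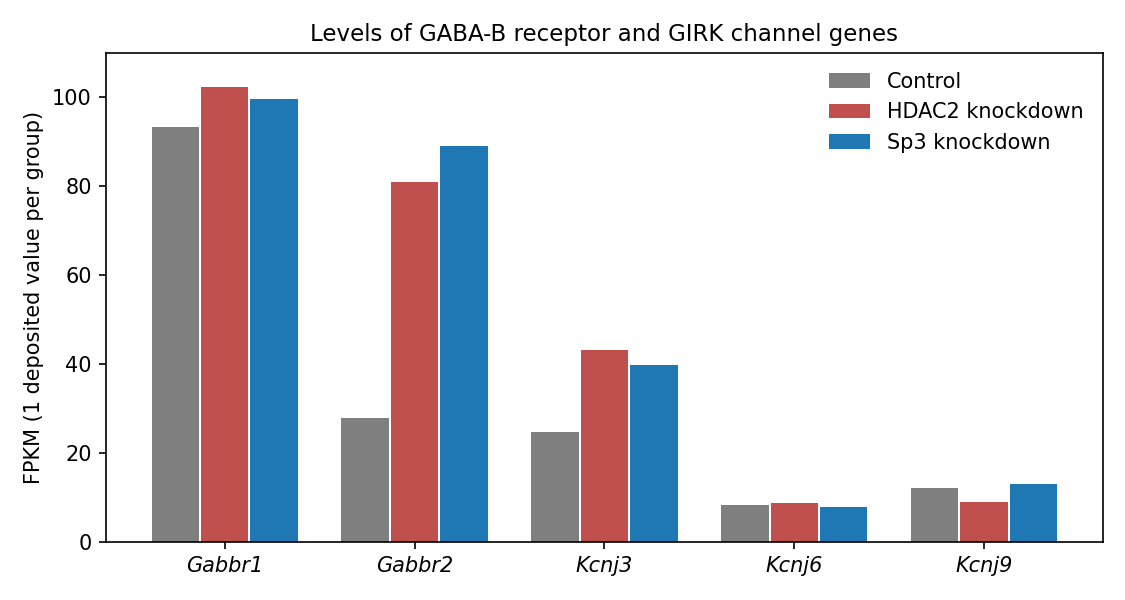
Level of each member in FPKM, as 1 deposited value per group of 2 libraries, for control, HDAC2 knockdown and Sp3 knockdown. No error bars can be drawn, since the deposited tables hold no value per library. Gabbr2 goes from 27.8 in control to 81.0 and 89.2, close to Gabbr1, and Kcnj3 from 24.7 to 43.3 and 39.9, while Kcnj6 stays between 7.96 and 8.71.

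Since Sp3 binds GC boxes, the promoters of the subunits that rose as deposited in both knockdowns, Gabbr2 and Kcnj3, are shown with that of Gabbr1, the receptor partner that was not called. Each is the 250 bases before the RefSeq gene start in build GRCm38.p6, 5′ to 3′ on the strand of the gene, at chr4:46991715-46991964 (minus strand) for Gabbr2, chr17:37045716-37045965 (plus) for Gabbr1 and chr2:55435720-55435969 (plus) for Kcnj3. Capitals mark the GC box core, searched as GGGCGG and, for the other strand, CCGCCC.
Gabbr2: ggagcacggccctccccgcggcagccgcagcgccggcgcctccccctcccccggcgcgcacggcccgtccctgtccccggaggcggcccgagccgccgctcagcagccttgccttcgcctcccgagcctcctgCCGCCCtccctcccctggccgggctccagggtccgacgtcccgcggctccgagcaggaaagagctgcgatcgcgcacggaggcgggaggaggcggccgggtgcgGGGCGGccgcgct
Gabbr1: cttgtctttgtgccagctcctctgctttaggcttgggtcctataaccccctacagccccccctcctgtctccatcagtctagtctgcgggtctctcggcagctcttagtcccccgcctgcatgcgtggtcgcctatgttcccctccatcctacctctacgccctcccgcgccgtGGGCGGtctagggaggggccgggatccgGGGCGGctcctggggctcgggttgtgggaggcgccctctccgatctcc
Kcnj3: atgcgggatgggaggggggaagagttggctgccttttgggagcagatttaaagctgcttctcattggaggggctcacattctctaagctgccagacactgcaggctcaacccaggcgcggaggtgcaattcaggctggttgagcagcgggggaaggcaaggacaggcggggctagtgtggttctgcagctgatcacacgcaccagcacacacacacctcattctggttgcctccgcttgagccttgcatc

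The Gabbr2 window holds 2 matches, 1 on each strand, and that of Gabbr1 holds 2 on the strand of the gene. The Kcnj3 window holds 0. RefSeq lists 2 starts for Kcnj6, with 0 and 1 matches, and 1 start for Kcnj9, with 0 matches, so all 5 members had at least 1 promoter entry. A match was held by 32.7% of all 32851 RefSeq promoter windows, and by 57.9% of the 11799 windows of genes tested in both comparisons. Gabbr2 had the most GC-rich window of the members, at 80.8% G or C and 37 CpG dinucleotides, against medians of 60.0% and 16 among windows of tested genes. Kcnj9 lay at the other end with 52.0% and 5 CpG dinucleotides. A match is a stretch of letters and not a measured binding site, and binding of Sp3 was not measured in these libraries.

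Gabbr2 (chromosome 4, 46676769 to 47004586 in mm9, as the authors' deposited table gives the locus) encodes the surface-targeting, G protein-coupling subunit. Its value was 27.8 FPKM in control, 81.0 in HDAC2 knockdown and 89.2 in Sp3 knockdown per the authors' deposited tables. Both knockdown values are thus above the control, and they lie close to each other. In HDAC2 knockdown Gabbr2 rose by a log2 fold change of 1.54 ± 0.38 (SE), a fold of 2.91 with a 95% interval from 1.74 to 4.86, with q = 3.58e-04 per the authors' deposited table. Its centred rise was 1.22, with an adjusted p of 0.00971. In Sp3 knockdown it rose by 1.68 ± 0.11, a fold of 3.20 with an interval from 2.76 to 3.71, and q is listed as 0 per the authors' deposited table. Its centred rise there was 1.81, with an adjusted p of 3.73e-59. Of 9452 genes with at least 5 FPKM in control, only 5 had a greater fold than Gabbr2 in Sp3 knockdown, whereas 138 of 9350 did in HDAC2 knockdown.

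Gabbr1 (chromosome 17, 37182910 to 37211250 in mm9) encodes the GABA-binding subunit and had the highest level of the members in every group. It stood at 93.3 FPKM in control, 102 in HDAC2 knockdown and 99.7 in Sp3 knockdown per the authors' deposited tables. All 3 values lie within a narrow range. Gabbr1 was, however, the least precisely measured member: its SE of 0.72 log2 units in the HDAC2 comparison exceeded that of 97.8% of genes of at least 1 FPKM, and its SE of 0.48 in the Sp3 comparison that of 95.9%. In HDAC2 knockdown the 95% interval of its fold ran from 0.41 to 2.93, with q = 0.908 per the authors' deposited table, and in Sp3 knockdown from 0.559 to 2.04, with q = 0.899. A change of Gabbr1 of 2-fold in either direction lies within the HDAC2 interval. The Sp3 interval holds a 2-fold rise but not a 2-fold fall. A constant level is therefore not shown. The tables give the gene as a whole, so its transcript variants, which differ in the part outside the cell, were not analysed here.

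Kcnj3 (chromosome 2, 55289566 to 55447936 in mm9), the GIRK subunit shared by most neuronal channels, was the only channel member called per the authors' deposited tables. It measured 24.7 FPKM in control, 43.3 in HDAC2 knockdown and 39.9 in Sp3 knockdown per the authors' deposited tables, so both knockdown values were above the control. The log2 fold change in HDAC2 knockdown was 0.81 ± 0.24, with q = 0.00458 per the authors' deposited table. Relative to the median gene it was 0.49, with a 95% interval from 0.016 to 0.97 and an adjusted p of 0.158, so the call is lost on that scale. In Sp3 knockdown the log2 fold change was 0.69 ± 0.10, with q = 6.23e-10 per the authors' deposited table, and the centred value 0.82 (adjusted p of 3.73e-14). Against the median pan-neuronal marker in place of the median gene, the Sp3 value of Kcnj3 was 0.32, with an adjusted p of 0.00376. On that reference the HDAC2 value was 0.79, with an adjusted p of 0.00688, so the HDAC2 call depends on the reference.

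Kcnj6 (chromosome 16, 94970289 to 95219303 in mm9), the subunit that can form channels by itself, had the lowest level of the members. It stood at 8.39 FPKM in control, 8.71 in HDAC2 knockdown and 7.96 in Sp3 knockdown per the authors' deposited tables. These values lie closer together than those of any other channel member. The 95% interval of its fold was 0.777 to 1.39 in HDAC2 knockdown (q = 0.872 per the authors' deposited table) and 0.788 to 1.14 in Sp3 knockdown (q = 0.702), so, on the scale as deposited, a rise of Kcnj6 of the size seen for Kcnj3 lies outside both intervals. The centred values were -0.26 (adjusted p of 0.468) and 0.056 (adjusted p of 0.790). Against the median pan-neuronal marker the Sp3 value of Kcnj6 was -0.45, with an adjusted p of 0.00212.

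Kcnj9 (chromosome 1, 174251163 to 174259394 in mm9), which encodes the subunit tied to channel trafficking, was lower in HDAC2 knockdown once the shift of the median gene was removed. It measured 12.02 FPKM in control, 9.02 in HDAC2 knockdown and 13.1 in Sp3 knockdown per the authors' deposited tables, the HDAC2 value being the lowest. As deposited, its log2 fold change of -0.41 ± 0.25 in HDAC2 knockdown had q = 0.204, and that of 0.13 ± 0.11 in Sp3 knockdown had q = 0.382 per the authors' deposited tables. Measured against the median gene, Kcnj9 fell in HDAC2 knockdown, by 0.73 (adjusted p of 0.0267), and rose in Sp3 knockdown by 0.26 (adjusted p of 0.0461). The Sp3 call rests on the choice of reference: it was 0.24 with an adjusted p of 0.0703 against the median of genes of at least 5 FPKM, and -0.24 with an adjusted p of 0.0373 against the median pan-neuronal marker. The HDAC2 call was lost without centring and against pan-neuronal markers (-0.41 and -0.44, adjusted p of 0.227 and 0.207). No other locus listed in the authors' deposited tables overlapped that of a member.

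**Figure D2:**
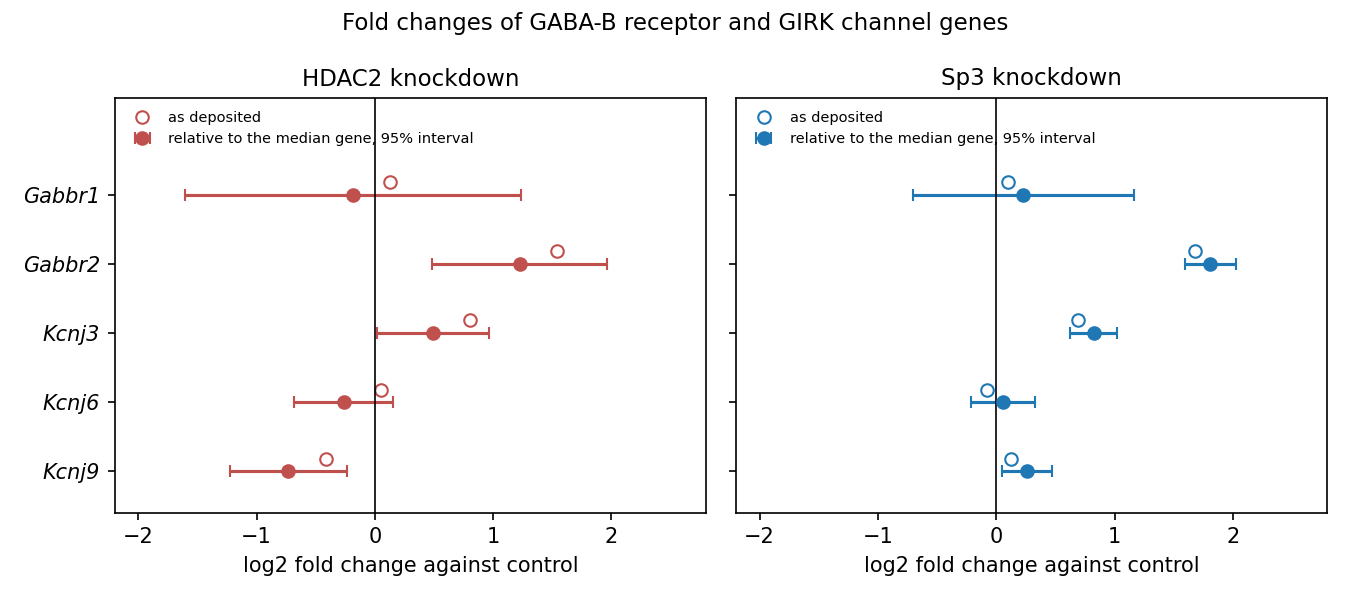
Log2 fold change of each member against control in HDAC2 knockdown (left) and Sp3 knockdown (right). Filled points are values relative to the median gene with their 95% interval from the implied standard error, and open points are the values as deposited. Gabbr2 lies above 0 on both scales in both panels, the Gabbr1 intervals are the widest, and Kcnj9 lies below 0 in HDAC2 knockdown only.

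The knockdowns were compared directly through the difference of their centred log2 fold changes, in which the control cancels. Of the 13277 genes fitted for both knockdowns, 14.7% differed, 7.86% with the higher value in HDAC2 and 6.85% in Sp3 knockdown (normal test, Benjamini-Hochberg over all genes). Of the members 1 of 5 did: Kcnj9 was lower in HDAC2 than in Sp3 knockdown, with a difference of -0.99 ± 0.28 (adjusted p of 0.00442). Without centring this difference was -0.54, with an adjusted p of 0.129. For Gabbr2 the difference was -0.59 ± 0.39, with a 95% interval from -1.36 to 0.18 and an adjusted p of 0.380. The values for Kcnj3 (-0.33 ± 0.26), Kcnj6 (-0.32 ± 0.25) and Gabbr1 (-0.41 ± 0.87) were not called either, with adjusted p of 0.487, 0.488 and 0.848. The sign of the uncalled differences turned with the centring: against pan-neuronal markers they were 0.21 for Gabbr2, 0.47 for Kcnj3, 0.48 for Kcnj6 and 0.39 for Gabbr1, with adjusted p from 0.0888 to 0.706. For Gabbr2 and Kcnj3 the deposited FPKM was lower in control than in both knockdowns, with no call between the knockdowns. Relative to the median gene, however, Kcnj3 was not called against control in HDAC2 knockdown (adjusted p of 0.158, normal test). A difference of up to 1.36 log2 units for Gabbr2 lies within the interval.

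Ratios of members within a group do not depend on the scaling of a library. In control there were 0.298 FPKM of Gabbr2 for each FPKM of Gabbr1, against 0.792 in HDAC2 knockdown and 0.894 in Sp3 knockdown, from the authors' deposited values. The receptor subunits thus went from a 3.35-fold excess of Gabbr1 RNA to levels within 1.26-fold and 1.12-fold of each other. In Sp3 knockdown this ratio was 2.996-fold that of control, with a 95% interval from 1.54 to 5.82. In HDAC2 knockdown it was 2.66-fold, but the interval from 0.877 to 8.04 includes no change, with the wide error of Gabbr1 in both intervals. The ratio of Gabbr2 to Kcnj3 was 1.98-fold that of control in Sp3 knockdown (interval 1.62 to 2.43), whereas in HDAC2 knockdown the interval of that ratio, 0.904 to 3.06, includes 1.

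Among the channel subunits, the share of Kcnj3 in the RNA was larger in both knockdowns than in control. The summed FPKM of Kcnj3, Kcnj6 and Kcnj9 was 45.1 in control and 61.0 in each knockdown, from the authors' deposited values. Unlike shares and ratios, this sum depends on library scaling, and the median gene stood at 0.32 in HDAC2 and -0.13 in Sp3 knockdown. Kcnj3 made up 54.8% of that sum in control, 70.9% in HDAC2 knockdown and 65.4% in Sp3 knockdown. Kcnj9 made up 26.6%, 14.8% and 21.5%, and Kcnj6 18.6%, 14.3% and 13.0%. The ratio of Kcnj3 to Kcnj6 was 1.69-fold that of control in HDAC2 knockdown (95% interval 1.09 to 2.61) and 1.70-fold in Sp3 knockdown (1.35 to 2.15). For Kcnj3 to Kcnj9 it was 2.33-fold (1.45 to 3.75) and 1.48-fold (1.21 to 1.81). For Kcnj6 to Kcnj9 it was 1.38-fold and 0.869-fold, and both intervals (0.882 to 2.17 and 0.685 to 1.10) include no change. These intervals carry no adjustment for the 10 ratios examined.

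**Figure D3:**
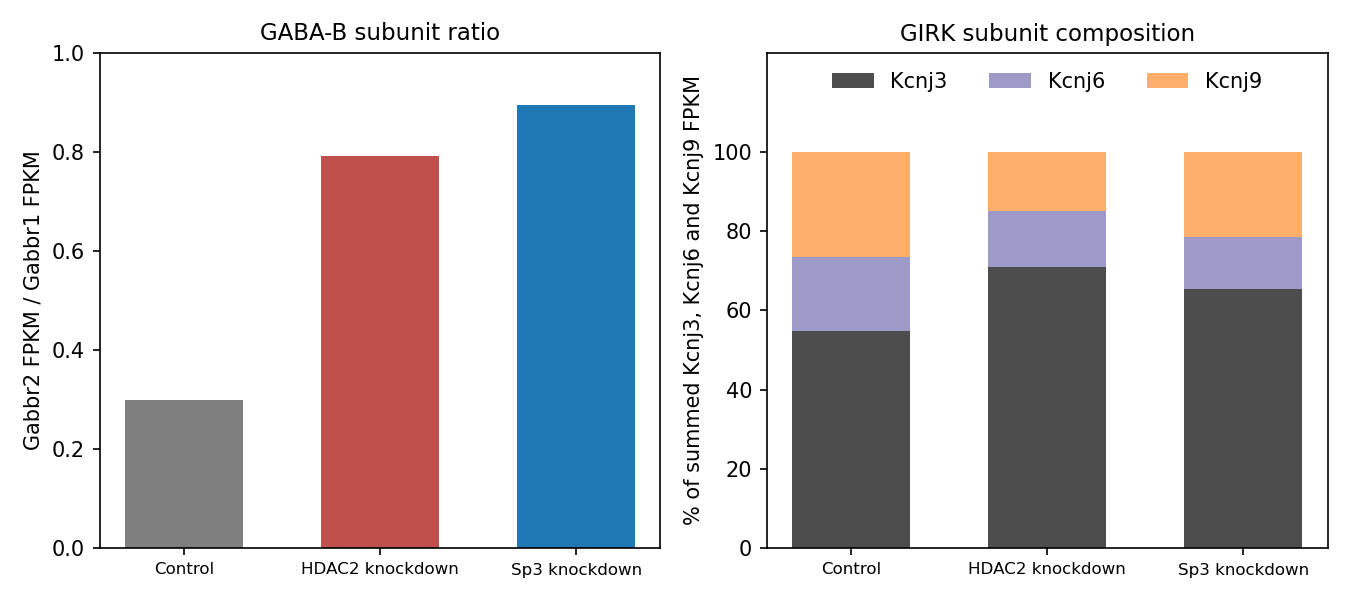
Left, ratio of Gabbr2 to Gabbr1 in FPKM for each group. Right, share of Kcnj3, Kcnj6 and Kcnj9 in their summed FPKM, in percent. The receptor ratio is 0.298 in control against 0.792 and 0.894, and the Kcnj3 share is 54.8% in control against 70.9% and 65.4%; each bar is from 1 deposited value per gene and group.

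Kcnj5, the GIRK subunit known mainly from the heart, was near the floor, at 0.126, 0.146 and 0.0245 FPKM in control, HDAC2 and Sp3 knockdown per the authors' deposited tables, and had no test. Among the other inwardly rectifying channels, 2 of 6 tested were called higher and 1 lower in each of the authors' deposited tables. Over all genes tested, 24.6% were higher and 3.6% lower in HDAC2, and 13.2% and 26.1% in Sp3 knockdown. In HDAC2 knockdown the glial subunit Kcnj16 rose from 1.38 to 6.34 FPKM and Kcnj12 fell from 5.54 to 2.61 FPKM per the authors' deposited table. In Sp3 knockdown Kcnj10, a glial channel gene 11.9 kb from Kcnj9, fell from 25.6 to 5.67 FPKM, while Kcnj16 rose from 1.38 to 1.90 FPKM (q = 0.00236) and Kcnj2 from 2.49 to 3.80 FPKM per the authors' deposited table. Astrocyte markers were called higher in 7 of 10 tests in HDAC2 knockdown and lower in 6 of 11 in Sp3 knockdown per the authors' deposited tables. Relative to the median gene, 6 of these markers were higher and 0 lower in HDAC2, and 3 higher and 6 lower in Sp3 knockdown. On that scale 10.2% of all genes were higher and 7.59% lower in HDAC2, and 20.2% and 17.6% in Sp3 knockdown. The part of glial cells in the values of Kcnj10 and Kcnj16 was not tested.

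KCTD proteins bind the tail of the Gabbr2 product and shape the time course of the receptor response. Kctd16 measured 18.4 FPKM in control, 15.6 in HDAC2 knockdown and 24.0 in Sp3 knockdown per the authors' deposited tables. It rose in Sp3 knockdown (q = 0.00801 per the authors' deposited table), and its centred value was 0.52 ± 0.12. Kctd12 stood at 15.4, 13.6 and 15.9 FPKM and was called in neither of the authors' deposited tables. Kctd8 rose from 0.850 to 1.95 FPKM in HDAC2 knockdown (q = 0.0256 per the authors' deposited table), a call that was lost relative to the median gene (adjusted p of 0.168). Kctd12b, at 0.473 to 0.668 FPKM per the authors' deposited tables, had no test. The KCTD genes thus gave 1 called higher and 0 lower of 3 tested in each table. Among all genes tested, 24.6% were higher and 3.6% lower in HDAC2, and 13.2% and 26.1% in Sp3 knockdown. The centred median of the KCTD genes was -0.50 in HDAC2 and 0.52 in Sp3 knockdown. It was -0.0044 and -0.0021 over all genes tested and -0.30 and 0.50 for the pan-neuronal markers. As deposited, the median was -0.19 and 0.38 for the KCTD genes and 0.021 and 0.37 for the pan-neuronal markers.

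Of 10 tested genes for proteins that bind or traffic the receptor or the channel, 1 was higher and 2 lower in HDAC2 knockdown, and 2 higher and 2 lower in Sp3 knockdown per the authors' deposited tables. Among all genes tested, 24.6% were higher and 3.6% lower in HDAC2, and 13.2% and 26.1% in Sp3 knockdown. Ajap1, whose product binds the extracellular part of GABA-B receptors, rose from 7.80 to 17.0 FPKM in HDAC2 knockdown and to 13.8 FPKM in Sp3 knockdown per the authors' deposited tables. Its centred values were 0.80 ± 0.24 (adjusted p of 0.00795) and 0.95 ± 0.11 (adjusted p of 2.19e-15). Ddit3, a stress-induced transcription factor that can bind the receptor, fell from 35.0 to 19.2 and 19.4 FPKM per the authors' deposited tables. Usp14, a deubiquitinase, fell from 42.6 to 24.3 FPKM in HDAC2 knockdown and measured 38.6 FPKM in Sp3 knockdown, q = 0.0774 per the authors' deposited tables. The centred median of this list was -0.12 in HDAC2 and 0.088 in Sp3 knockdown, against 0.19 and -0.045 as deposited, so its sign turns with the centring.

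Of the 5 Gi/o alpha subunits, which pass the signal from the receptor, 1 was higher and 0 lower in HDAC2 knockdown, and 1 higher and 2 lower in Sp3 knockdown per the authors' deposited tables. Gnai2 stood at 59.9 FPKM in control, 127 in HDAC2 knockdown and 39.1 in Sp3 knockdown, called higher and lower in turn per the authors' deposited tables. Its rise was lost relative to the median gene (0.77, adjusted p of 0.0821). Gnaz rose from 17.0 to 23.8 FPKM in Sp3 knockdown per the authors' deposited table. In HDAC2 knockdown Gnaz stood at 25.3 FPKM and was not called (q = 0.0584). Its difference between the knockdowns was not called either (adjusted p of 0.443). Gnao1, the main neuronal subunit, was not called in either of the authors' deposited tables. The list of beta and gamma genes includes Gnb5, and also Gnb2l1, a beta-like gene that does not encode a G protein beta subunit. Gnb2l1 is counted among the tested genes and was called in neither knockdown (q = 0.225 and 0.623 per the authors' deposited tables). Whether each product of the list opens the channel was not tested. Of this list, 5 of 12 tested were higher and 0 lower in HDAC2 knockdown per the authors' deposited table. In Sp3 knockdown 3 of 13 were higher and 5 lower per the authors' deposited table, with Gnb5 among the lower. The shares over all genes tested were 24.6% higher and 3.6% lower in HDAC2, and 13.2% and 26.1% in Sp3 knockdown. Gng12 went from 12.3 to 24.6 FPKM in HDAC2 knockdown and to 6.48 FPKM in Sp3 knockdown per the authors' deposited tables, and both calls held relative to the median gene. The centred medians were 0.26 and -0.024 for the alpha list and 0.30 and -0.0078 for the beta and gamma list. Of the oligodendrocyte lineage markers, 11 of 14 tested were called higher in HDAC2 knockdown and 7 of 9 lower in Sp3 knockdown per the authors' deposited tables, and their part in the values of Gng12 was not tested.

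Other receptors that open GIRK channels through Gi/o were called higher more often than lower in Sp3 knockdown. Over all genes tested, 24.6% were higher and 3.6% lower in HDAC2 and 13.2% higher and 26.1% lower in Sp3 knockdown as deposited, and 10.2% and 7.59%, and 20.2% and 17.6%, relative to the median gene. In HDAC2 knockdown 4 of 22 receptor genes tested were higher and 1 lower per the authors' deposited table, and 2 and 2 relative to the median gene, with a centred median of -0.022 and one of 0.29 as deposited. In Sp3 knockdown 13 of 24 were higher and 2 lower per the authors' deposited table, and 19 and 1 relative to the median gene, with a centred median of 0.51 and one of 0.37 as deposited. The pan-neuronal markers had a centred median of 0.50 in Sp3 knockdown and 0.37 as deposited, and their part in the receptor values was not tested. Of 15 such markers, 6 were called higher and 2 lower as deposited, and 7 higher and 0 lower relative to the median gene. The adenosine receptor gene Adora1 stood at 24.6 FPKM in control, 15.1 in HDAC2 knockdown and 36.2 in Sp3 knockdown, and was called lower and higher in turn per the authors' deposited tables. The difference of its centred values between the knockdowns was -1.71 (adjusted p of 3.54e-49). The muscarinic receptor gene Chrm4 rose from 10.1 to 17.9 FPKM and the metabotropic glutamate receptor gene Grm7 from 30.6 to 48.9 FPKM in Sp3 knockdown per the authors' deposited table. In HDAC2 knockdown they stood at 13.2 and 49.2 FPKM, neither called (q = 0.204 and 0.0669). The difference between the knockdowns was called for Chrm4 (adjusted p of 0.00765) but not for Grm7 (0.441). Grm3 rose from 15.4 to 48.9 FPKM in HDAC2 and to 23.8 FPKM in Sp3 knockdown, and both calls held relative to the median gene.

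Genes that make, package, take up and break down GABA gave 1 call in HDAC2 and 4 in Sp3 knockdown as deposited. In HDAC2 knockdown 1 of 7 tested was higher and 0 lower per the authors' deposited table, and relative to the median gene 1 was higher and 2 lower. In Sp3 knockdown 4 of 7 were higher and 0 lower per the authors' deposited table, and 5 and 0 relative to the median gene. The median of this list in Sp3 knockdown was 0.37 as deposited and 0.50 centred, as it was for the pan-neuronal markers. In HDAC2 knockdown it was 0.62 and 0.30, against 0.021 and -0.30 for those markers, whose part was not tested. Of all genes tested, 24.6% were higher and 3.6% lower in HDAC2, and 13.2% and 26.1% in Sp3 knockdown as deposited. Abat, the enzyme that breaks GABA down, rose from 16.8 to 57.1 FPKM in HDAC2 and to 35.3 FPKM in Sp3 knockdown per the authors' deposited tables. Gad2, a GABA-synthesizing enzyme, measured 10.8, 7.72 and 15.5 FPKM, and the vesicular transporter gene Slc32a1 9.39, 6.33 and 13.1 FPKM, in control, HDAC2 and Sp3 knockdown per the authors' deposited tables. Gad1, the other GABA-synthesizing enzyme, measured 43.9, 74.3 and 54.3 FPKM per the authors' deposited tables, with q = 0.0547 in HDAC2 and a call as higher in Sp3 knockdown (q = 0.0251), and its centred value was 0.45 in HDAC2 (adjusted p of 0.397) and 0.44 in Sp3 knockdown (adjusted p of 5.61e-04). For Gad2 and Slc32a1, as deposited, neither was called in HDAC2 knockdown and both were called higher in Sp3 knockdown. On the centred scale both fell in HDAC2 knockdown (-0.80 and -0.88, adjusted p of 0.00645 and 0.00709) and rose in Sp3 knockdown (0.65 and 0.61, adjusted p of 1.72e-09 and 1.66e-05). Among all GABAergic neuron markers, a list that shares Gad1, Gad2 and Slc32a1, 2 of 10 tested were called higher and 0 lower in HDAC2 knockdown, and 8 of 11 higher and 1 lower in Sp3 knockdown per the authors' deposited tables. Relative to the median gene, 1 was higher and 2 lower in HDAC2, and 8 higher and 1 lower in Sp3 knockdown. Glutamatergic neuron markers gave 1 higher and 1 lower of 12 in HDAC2 knockdown, and 3 higher and 3 lower of 12 in Sp3 knockdown by the authors' deposited q.

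**Figure D4:**
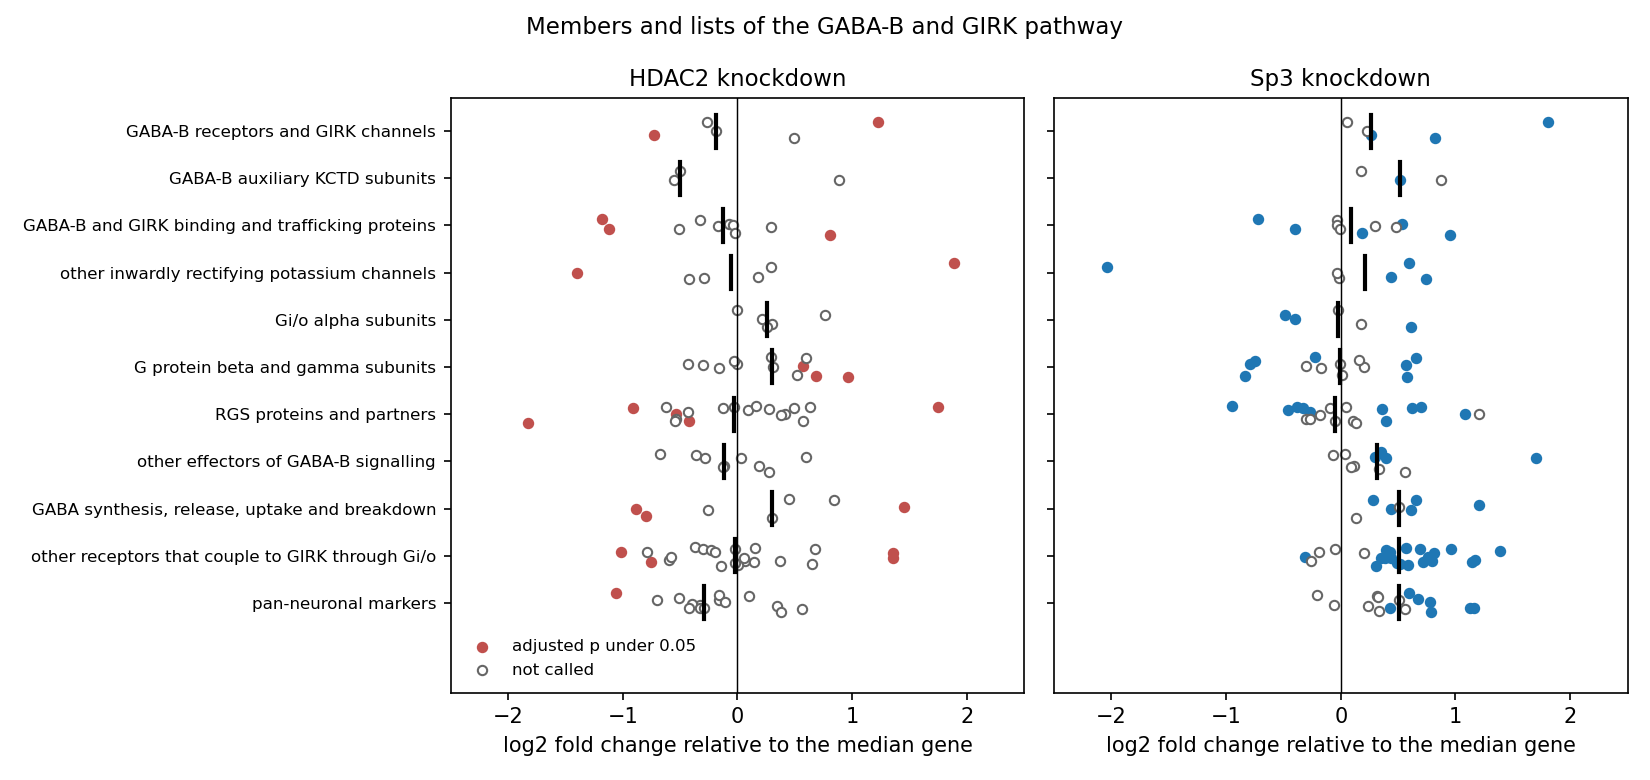
Centred log2 fold change of each tested gene, for the 5 members in the top row, the pathway lists and the pan-neuronal markers, in HDAC2 knockdown (left) and Sp3 knockdown (right). Filled points have an adjusted p under 0.05, open points do not, and the black bars are medians of a list. Gabbr2 at 1.22 and 1.81 is the highest member in both panels, and the other Gi/o receptors and the pan-neuronal markers both have medians near 0.5 in Sp3 knockdown.

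For each member, genes with the most similar pair of centred log2 fold changes were sought among 11604 genes of at least 1 FPKM in control, by Euclidean distance over these 2 values. With 3 groups that share a control, such likeness is a description only. Gabbr2 had few neighbours, 6 genes within 0.25 log2 units, and the nearest were Synpr (synaptoporin, a synaptic vesicle protein) at 0.15, Cxadr (a cell adhesion protein) at 0.18 and Scn3b (a sodium channel subunit) at 0.18. Kcnj3 had 250 genes within that distance, led by Slco4c1 at 0.014, Fn3krp at 0.027 and Zfp40 at 0.036. Kcnj9 had 285, led by the activity-regulated receptor gene Nr4a3 at 0.020, Tymp at 0.025 and the sorting receptor gene Sorcs3 at 0.031. Around Gabbr1 and Kcnj6, near the centre of all genes, 1510 and 1720 genes lay within that distance, with Ap4s1, Psmd13 and Aimp2 nearest to Gabbr1 and Hsf1, Agk and Tbc1d17 nearest to Kcnj6.

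**Figure D5:**
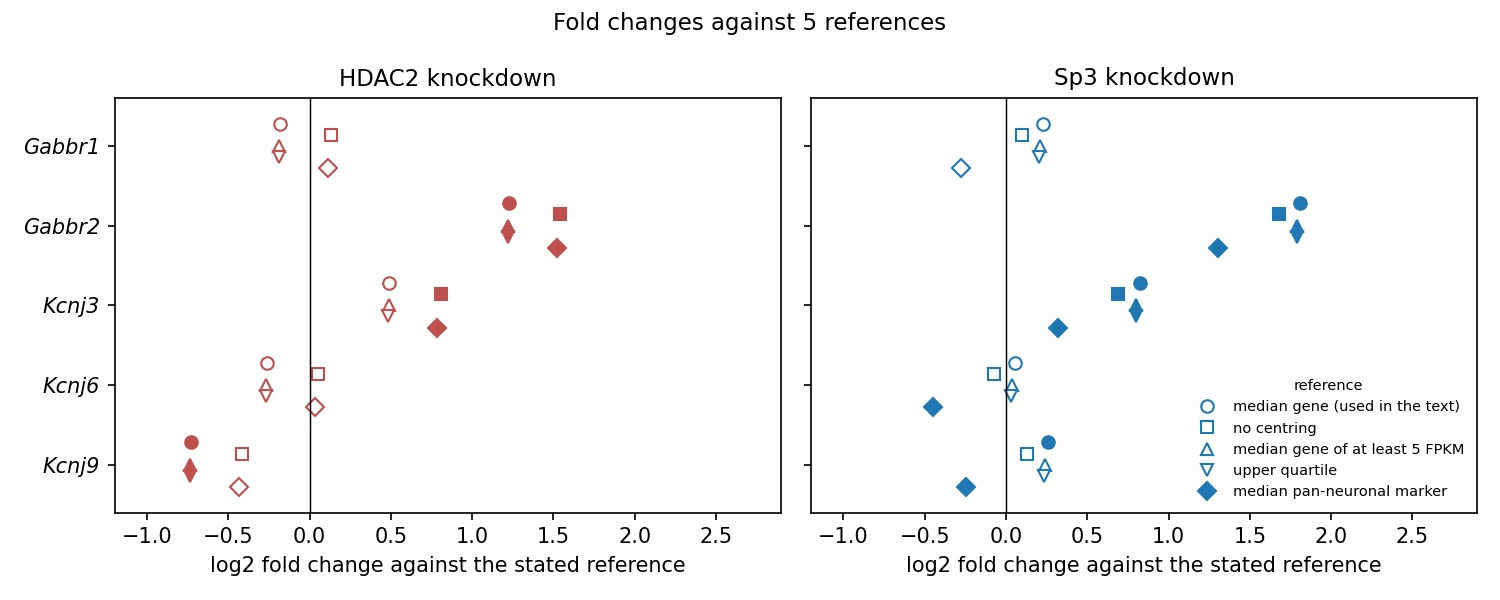
Log2 fold change of each member against 5 references, which differ in the value taken as no change, in HDAC2 knockdown (left) and Sp3 knockdown (right). Filled symbols have an adjusted p under 0.05. Gabbr2 is called with every reference in both panels, Kcnj3 in HDAC2 knockdown is called without centring and against pan-neuronal markers only, and in Sp3 knockdown Kcnj6 and Kcnj9 lie below 0 against pan-neuronal markers (-0.45 and -0.24).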

How the data were processed

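RNA was sequenced from 6 libraries, 2 per group, with TopHat, Bowtie, Cuffdiff and build mm9 named in the submitters' processing notes; the sources used here give no versions, annotation, strand setting or filters. For each knockdown the authors deposited a table of its comparison with control, holding FPKM as 1 value per group, a log2 fold change and test statistic (each held here as a score, since extreme numbers stand for folds against 0), and a p-value and q-value per gene, per the file headers. Control values were identical in both tables for 100% of genes. Statistic and fold change have opposite signs, and a normal p of the statistic matched the authors' p-value to within 2.79e-06. Groups were read from the sample titles.

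Standard errors were computed as the size of the log2 fold change divided by that of the statistic, leaving out folds against 0 and errors over 5. Centred values subtract the median log2 fold change, taken over genes with 1 FPKM or more in either group. Their p is normal and two-sided, with Benjamini-Hochberg adjustment over 13481 (HDAC2) and 13539 (Sp3) genes. The difference test takes the square root of the sum of both squared errors, which counts the control error although it cancels. The tests were run on simulated data with known changes first. Calls use 0.05. Intervals are normal at 95%.

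The members and the 16 gene lists were chosen with earlier results of these data known. Named genes are the members, Kcnj5 and the KCTD genes, the targets, up to 4 called genes with the smallest deposited p of each pathway list, up to 2 of each marker list, and the 3 nearest genes of each member, and the text gives a part of them; Gnao1, Tyrobp and Tmem119 were added after their values were seen. Map2 and Pianp were not analysed here. Promoters are from RefSeq on GRCm38.p6, another build than mm9, so no coordinate was carried over. Alternatives varied the q threshold, adjustment, low-value filter, reference distribution, pseudocount and centring. Python 3.11.15, numpy 2.4.6, pandas 2.3.3 and scipy 1.17.1 were used.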

Additional observations from a re-analysis of the deposited data

Results flagged for a closer look

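The effect on Kcnj9 differed between the knockdowns by the test of the difference itself. Its centred log2 fold change was -0.73 in HDAC2 and 0.26 in Sp3 knockdown, a difference of -0.99 ± 0.28 (adjusted p of 0.00442, normal test with Benjamini-Hochberg adjustment over 13277 genes, of which 14.7% were called). The control variance is not known from these tables; with an assumed control variance of 0.5 times the smaller squared standard error removed from both folds, the adjusted p was 0.00103, and against the median pan-neuronal marker the difference was -0.19 with an adjusted p of 0.552.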

How the results depend on the processing

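The calls as deposited (2 members in each knockdown) were the same at q under 0.01 and under 0.1, with the adjustment recomputed within a table, and among genes of at least 1 FPKM. With a t distribution of 2 degrees of freedom in place of the normal, 0 members were called in every comparison, and so were 0 of all genes, although 1268 (HDAC2) and 2281 (Sp3) genes had an unadjusted p under 0.05 as deposited. Of the members, 0 had one in HDAC2 and 2 in Sp3 knockdown, and the adjusted p of members ran from 0.295 to 0.948 over the comparisons. The number of members that differed between the knockdowns was 0 without centring and 0 against pan-neuronal markers, in place of 1. Against pan-neuronal markers, whose median log2 fold change was 0.021 in HDAC2 and 0.37 in Sp3 knockdown, the Sp3 values of Kcnj6 (-0.45) and Kcnj9 (-0.24) were on the other side of 0; the cause was not tested. Values that were called on neither scale also crossed 0: against pan-neuronal markers Gabbr1 in Sp3 (-0.28) and HDAC2 (0.11) and Kcnj6 in HDAC2 knockdown (0.032), and without centring Gabbr1 (0.13) and Kcnj6 (0.053) in HDAC2 and Kcnj6 (-0.076) in Sp3 knockdown. A pseudocount of 1 FPKM moved no member or ratio by more than its standard error. No paired analysis was possible because the deposited tables hold 1 value per group, and for the same reason no replicate could be left out. Depth is unknown, and the precision of Gabbr1 limits what can be said of the receptor ratio.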

Other observations

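RGS proteins speed the closing of GIRK channels. The genes of RGS proteins and their partners, a list that includes Rgs7bp, Gpsm1 and Gpsm2, moved in both directions. Of 19 tested, 7 were higher and 2 lower in HDAC2 knockdown per the authors' deposited table, against 24.6% and 3.6% of all genes. In Sp3 knockdown 5 were higher and 8 lower per the authors' deposited table, against 13.2% and 26.1%. Relative to the median gene 1 was higher and 4 lower in HDAC2, and 5 higher and 5 lower in Sp3 knockdown. Rgs17 fell from 7.59 to 2.66 FPKM in HDAC2 and to 5.30 FPKM in Sp3 knockdown per the authors' deposited tables. Rgs6 rose from 4.89 to 8.11 and 9.44 FPKM per the authors' deposited tables, and relative to the median gene it was called in Sp3 knockdown (1.08 ± 0.16) but not in HDAC2 knockdown (0.41 ± 0.27, adjusted p of 0.317).

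Of the other targets of GABA-B signalling, adenylyl cyclases and presynaptic calcium channels, 1 of 9 tested was higher and 0 lower in HDAC2 knockdown, and 4 of 10 were higher and 1 lower in Sp3 knockdown per the authors' deposited tables. Among all genes tested, 24.6% were higher and 3.6% lower in HDAC2, and 13.2% and 26.1% in Sp3 knockdown. Relative to the median gene, 0 of these targets were higher and 0 lower in HDAC2, and 4 higher and 0 lower in Sp3 knockdown. The adenylyl cyclase gene Adcy9 measured 9.89 FPKM in control, 14.1 in HDAC2 knockdown and 29.4 in Sp3 knockdown per the authors' deposited tables. Its centred value was 1.70 ± 0.10 in Sp3 knockdown (adjusted p of 1.63e-67), and it differed between the knockdowns by -1.51 (adjusted p of 5.63e-07).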
